A study of Rattus norvegicus with 4 samples.

Results

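The Hox genes of rat S16 cells are described here. They were taken as all listed genes whose symbol was Hox, a cluster letter from a to d and a paralog number, and 33 of the 30708 listed genes had such a symbol. Hox genes encode homeodomain transcription factors and lie in clusters (HoxA, HoxB, HoxC and HoxD) in which the order of the genes follows the order of their expression along the body axis of the embryo. Genes with low paralog numbers are known for hindbrain and neck levels and genes with high numbers for lumbar, sacral and tail levels, and the combination of Hox genes that a cell keeps is read as its axial identity. Schwann cells derive from the neural crest, which arises along this axis, and Hox proteins bind DNA together with TALE homeodomain cofactors of the Pbx, Meis and Pknox families.

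S16 cells are rat Schwann cells that were immortalized in culture. Unmodified S16 cells of 2 populations were studied by poly(A) RNA-Seq, without any treatment or allele added. The passage 9 population was the parental line of cells later deleted for the rSOX-4 enhancer, and the other was grown to passage 39. From each population 2 libraries were made, which the labels number as technical replicates 1 and 2 and which are called library 1 and library 2 here, so that a passage had 1 population and no biological replicate. Nothing in the labels gives the axial level of the nerve from which the line was made. For each library the authors deposited RPKM values, in which the reads of a gene are divided by its length in kilobases and by the library total in units of 1000000. The totals behind them, recovered from the values, were between 34.2 and 41.4 M reads (M, 1000000). The study's methods give fewer reads per cell line than this, a difference that was not resolved. With the recovered totals, 3 reads of a gene of the length of Hoxb3 correspond to between 0.0647 and 0.0781 RPKM.

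The Schwann cell label was checked against markers. Of 10 Schwann cell markers, 9 had a mean of at least 1 RPKM, among them the myelin gene Pmp22 at 1255 RPKM, and the defining transcription factor Sox10 was at 176 RPKM. Summed over the list, these markers were between 3768 and 4649 RPKM per library. None of 7 neuron markers reached 1 RPKM and their sum was at most 0.0579 RPKM, with Isl1 at 0.00689 RPKM. Of 5 fibroblast markers, 3 reached 1 RPKM: the collagen genes Col1a1 at 3588 RPKM and Col3a1 at 65.9 RPKM, and Pdgfra at 5.35 RPKM. Dcn and Lum were at 0.0033 and 0.0534 RPKM. That list summed to between 3432 and 3933 RPKM. Of 4 melanocyte markers, Pmel was at 8.72 RPKM and the highest of the others, Dct, was at 0.0206 RPKM, with sums between 8.27 and 9.19 RPKM.

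The 4 libraries did not group by passage. Library 1 of passage 9 and library 1 of passage 39 were close to each other, and both stood apart from the 2 libraries numbered 2. In an exact test of the reads of each gene, 5311 genes were higher and 3112 lower in library 2 than in library 1 of passage 9, against 2 higher and 5 lower between the libraries numbered 1 of the 2 passages. The Schwann cell markers moved with the library number too: S100b, a calcium-binding protein of Schwann cells, was at 85.7 and 31.8 RPKM in libraries 1 and 2 of passage 9 and at 86.6 and 32.8 RPKM in those of passage 39. Of the Schwann cell markers 3 were called higher and 6 lower in library 2 at both passages, of the fibroblast markers 2 and 1, and of the neuron and melanocyte markers 0, beside 25.2% higher and 14.6% lower of all genes. Technical replicates of 1 population thus differed at far more genes than libraries of the same number from the 2 populations, which goes against what the labels say of the libraries. The labels were used as given, and whether passage and replicate number were exchanged in them was not tested. If they were, the differences by passage and by library number given here would exchange their meaning, and an SD over 2 populations would be one over technical replicates. Values are therefore given for every library.

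Of the 33 Hox genes, 22 had a mean of at least 1 RPKM in both populations, a level that 35.7% of all listed genes reached. They were 3 of 8 HoxA genes, 9 of 10 HoxB genes, 8 of 8 HoxC genes and 2 of 7 HoxD genes. Of the other 11, 5 lay below 1 RPKM and 6 (Hoxa5, Hoxa6, Hoxa9, Hoxa11, Hoxb1 and Hoxd12) were listed at 0 in all libraries, as were 33.8% of all listed genes. With no read in a library the expected count may still be up to 3, and such a value is given only as listed at 0, because 1 of 78 ribosomal protein genes was also listed at 0 throughout. In RNA from a whole culture, fewer cells that express a gene and less RNA per cell cannot be told apart. The symbols Hoxa4, Hoxa7, Hoxa10, Hoxc11, Hoxd8 and Hoxd11 were not analysed here.

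**Figure D1:**
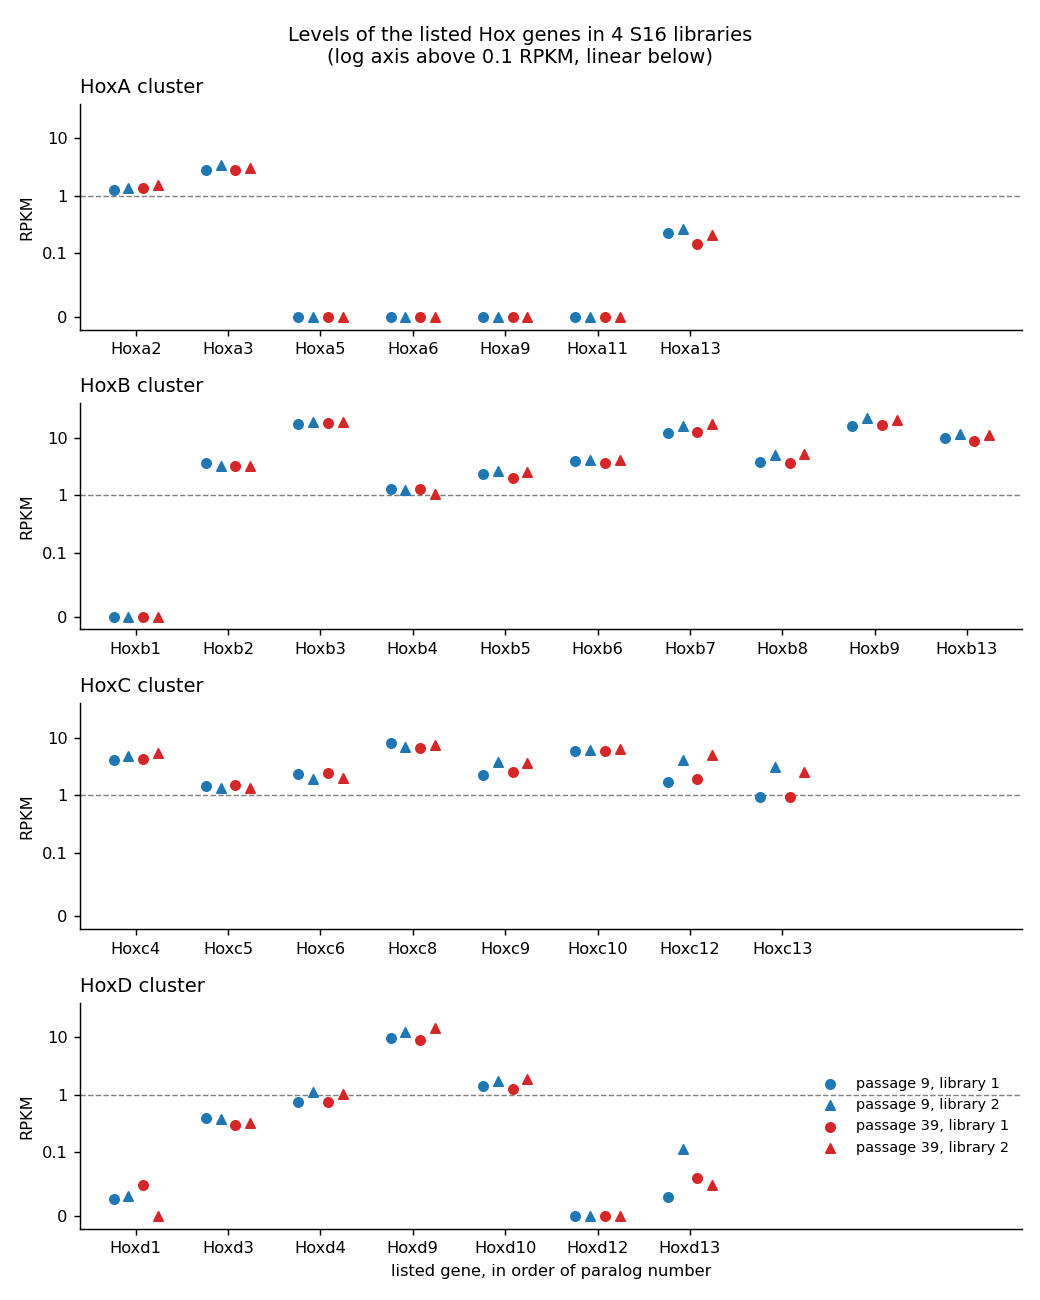
RPKM (y axis, logarithmic above 0.1 and linear below) of 32 listed Hox genes (x axis, by paralog number) in the 4 libraries, 1 panel per cluster; circles are library 1, triangles library 2, blue passage 9 and red passage 39, and the dashed line marks 1 RPKM. The HoxB and HoxC genes other than Hoxb1 lie around or above the line, while 4 HoxA genes lie at 0 and the triangles of Hoxc12 and Hoxc13 lie above the circles.

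The HoxB cluster carried most of the Hox RPKM. Its highest gene was Hoxb9, a gene of thoracic and rib patterning, at 16.2 and 22.5 RPKM in libraries 1 and 2 of passage 9 and at 16.7 and 20.3 RPKM in those of passage 39, in that order here and below. Hoxb3, which acts in the hindbrain and in the pharyngeal arches, was at 17.6, 18.7, 17.9 and 18.8 RPKM. The means of the 2 populations were 18.9 ± 0.595 RPKM for Hoxb9 and 18.3 ± 0.143 RPKM for Hoxb3 (SD, n = 2 populations), ranks 3704 and 3820 of all listed genes, and Hoxb9 was the higher of the pair in 2 of 4 libraries. Next came Hoxb7, a central member of the cluster, at 12.2, 16.4, 12.9 and 17.5 RPKM, and Hoxb13, the most posterior member, known from the tail bud and the prostate, at 9.92, 11.9, 8.71 and 11.0 RPKM. Both were lower in library 1 than in library 2 at either passage, so that their library numbers did not overlap and their passages did.

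The remaining HoxB genes were lower. Hoxb8, a gene of the trunk that is also used in microglia, was at 3.82, 5.02, 3.67 and 5.22 RPKM. Hoxb6 was at 3.89, 4.16, 3.64 and 4.16 RPKM. Hoxb2, which acts in the facial motor nucleus, was at 3.69, 3.29, 3.27 and 3.28 RPKM, and was the only one of the 22 genes for which both libraries of one passage lay above both libraries of the other. Hoxb5 was at 2.39, 2.66, 2.04 and 2.52 RPKM, and Hoxb4, known for its effect on blood stem cells, at 1.27, 1.22, 1.27 and 1.07 RPKM. Hoxb1, a hindbrain gene whose protein specifies facial motor neurons, was the only HoxB gene listed at 0.

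All 8 listed HoxC genes reached 1 RPKM. Hoxc8, a gene of the lower thorax and of brachial motor neurons, was the highest at 8.07, 6.98, 6.49 and 7.53 RPKM, with library 2 below library 1 at passage 9 and above it at passage 39. Hoxc10, which acts at lumbar levels, was at 5.78, 6.20, 5.77 and 6.39 RPKM, and Hoxc4 at 4.10, 4.86, 4.26 and 5.32 RPKM. Thus Hoxc10 and Hoxc4 were each higher in both libraries numbered 2 than in both numbered 1. Hoxc9, which sets the thoracic identity of motor neurons, was at 2.26, 3.70, 2.51 and 3.57 RPKM. Hoxc6, a gene of the forelimb level, was at 2.36, 1.88, 2.46 and 1.97 RPKM, and Hoxc5 at 1.44, 1.32, 1.51 and 1.31 RPKM. Both of the latter were higher in the libraries numbered 1.

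The posterior end of HoxC differed most between library numbers. Hoxc12 was at 1.72, 4.02, 1.87 and 4.88 RPKM. Hoxc13, which is known for hair and nail formation, was at 0.930, 3.06, 0.917 and 2.54 RPKM. Neither gene's library numbers overlapped. The values rested on few reads, with 38, 106, 31 and 103 reads of Hoxc13 and 60, 119, 54 and 169 reads of Hoxc12. The 95% exact interval of Hoxc13 was 0.658 to 1.28 RPKM in library 1 and 2.51 to 3.70 RPKM in library 2 of passage 9, for counting error alone.

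In HoxA the detected genes were at the anterior end, where Hoxa2 and Hoxa3 lie. Hoxa3, a gene of the pharyngeal arches and the thymus, was at 2.82, 3.47, 2.76 and 3.04 RPKM. Hoxa2, the gene of second arch identity, was at 1.28, 1.38, 1.34 and 1.52 RPKM. Past a stretch of 4 listed genes at 0 (Hoxa5, Hoxa6, Hoxa9 and Hoxa11), the most posterior member Hoxa13, a gene of the digits and the genital tubercle, was at 0.222, 0.262, 0.145 and 0.207 RPKM, from 13, 13, 7 and 12 reads.

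HoxD held 1 gene at a high level. Hoxd9 was at 9.65, 12.4, 8.84 and 14.4 RPKM, and the mean over populations, 11.3 ± 0.417 RPKM (SD, n = 2), was 12.4 times that of Hoxd4 on the anterior side of the listed genes and 7.29 times that of Hoxd10 on the posterior side. Hoxd10, a gene of lumbar motor neurons, was at 1.40, 1.73, 1.23 and 1.84 RPKM. Hoxd4 was at 0.761, 1.11, 0.751 and 1.04 RPKM and Hoxd3 at 0.386, 0.382, 0.292 and 0.321 RPKM. Each of these was lower than Hoxd9 in all 4 libraries. Hoxd9 had 512, 557, 388 and 757 reads and Hoxd4 had 175, 217, 143 and 237. The gene lengths behind their RPKM values were 1282 and 5560 bp, so their ratio was smaller in reads than in RPKM. Hoxd13, a digit gene, had a mean of 0.0629 RPKM and Hoxd1 of 0.0264 RPKM, from at most 10 and 3 reads in a library, and Hoxd12 was listed at 0.

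Hoxd9 was above Hoxd10, and Hoxd10 was above both Hoxd12, listed at 0, and Hoxd13. These genes lie in 1 cluster and on 1 strand, and the sequences upstream of them are shown for that reason. The 250 bases before the start of each gene are from RefSeq, build GRCr8, plus strand, at chr3:80007756-80008005 for Hoxd9, chr3:80001697-80001946 for Hoxd10, chr3:79984856-79985105 for Hoxd12 and chr3:79977827-79978076 for Hoxd13, and capitals mark CG dinucleotides, the bases that are methylated in mammalian DNA.
Hoxd9: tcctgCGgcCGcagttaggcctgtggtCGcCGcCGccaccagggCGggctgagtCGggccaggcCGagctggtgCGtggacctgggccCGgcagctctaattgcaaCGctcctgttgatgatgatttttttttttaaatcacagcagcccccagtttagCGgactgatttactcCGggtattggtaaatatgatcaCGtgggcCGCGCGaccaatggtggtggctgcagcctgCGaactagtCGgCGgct
Hoxd10: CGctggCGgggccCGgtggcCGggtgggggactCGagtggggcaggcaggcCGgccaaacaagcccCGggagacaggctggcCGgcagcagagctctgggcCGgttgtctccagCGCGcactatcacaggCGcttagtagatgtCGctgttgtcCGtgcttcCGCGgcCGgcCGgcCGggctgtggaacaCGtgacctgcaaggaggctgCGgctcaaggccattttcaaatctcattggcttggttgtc
Hoxd12: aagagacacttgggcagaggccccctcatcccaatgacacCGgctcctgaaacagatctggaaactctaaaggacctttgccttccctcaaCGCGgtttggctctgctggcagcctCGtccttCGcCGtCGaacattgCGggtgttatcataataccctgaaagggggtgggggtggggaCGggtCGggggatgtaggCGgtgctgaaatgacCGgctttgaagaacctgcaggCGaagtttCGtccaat
Hoxd13: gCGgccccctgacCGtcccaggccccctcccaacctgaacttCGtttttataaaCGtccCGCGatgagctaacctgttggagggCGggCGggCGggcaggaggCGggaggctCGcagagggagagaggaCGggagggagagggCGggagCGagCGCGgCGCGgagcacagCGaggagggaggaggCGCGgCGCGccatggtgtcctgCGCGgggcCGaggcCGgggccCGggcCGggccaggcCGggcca
CG was counted on the strand shown, which gives the same count on the other strand. The windows held 20 CG for Hoxd9, 21 for Hoxd10, 14 for Hoxd12 and 30 for Hoxd13, where 16.7%, 15.1%, 27.6% and 5.35% of all 33469 promoters in the table held at least as many. The gene with the most CG of these 4 was thus Hoxd13, at 0.0629 RPKM, and the gene listed at 0 had the fewest. Over the 15 listed Hox genes with a promoter in the table the count was between 3 and 39 with a median of 18, beside a median of 5 over all promoters.

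Summed over the 33 genes, Hox RPKM was 115.8, 141.1, 113.7 and 142.3 in the 4 libraries, with a mean of 128.2 ± 0.333 RPKM (SD, n = 2 populations). This was between 0.0360% and 0.0408% of the summed RPKM of a library. HoxB carried 60.6 ± 0.500% of it, HoxC 23.0 ± 0.186%, HoxD 11.0 ± 0.182% and HoxA 5.37 ± 0.132% (SD, n = 2 populations). Each population mean averages 1 library of each number, so these SDs leave out the difference between library numbers. Over the 4 libraries HoxB ran from 58.9% to 61.6% and HoxC from 22.7% to 23.6%. HoxD ran from 9.86% to 12.4% and HoxA from 5.10% to 5.83%. In RPKM, HoxB summed to 70.9, 85.8, 70.1 and 83.9, and HoxA to 5.98, 7.61, 6.63 and 7.26, so that the order of the clusters was the same in each library. The top 5 genes, Hoxb9, Hoxb3, Hoxb7, Hoxd9 and Hoxb13, made up 57.3% of the sum.

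**Figure D2:**
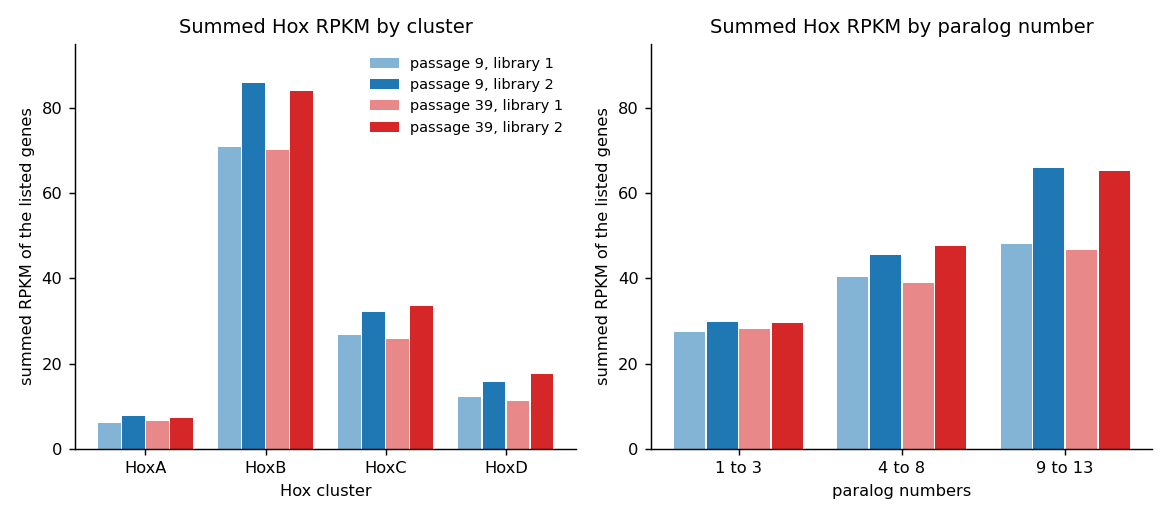
Summed RPKM (y axis) of the listed Hox genes by cluster (left) and by paralog number (right) in each of the 4 libraries; bars are sums within 1 library, pale for library 1 and full colour for library 2, blue for passage 9 and red for passage 39. HoxB reaches 70.1 to 85.8 RPKM, and the paralogs 9 to 13 show the widest gap between pale and full bars.

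By paralog number, the 8 listed genes of paralogs 1 to 3 summed to 28.7 ± 0.0854 RPKM, the 12 of paralogs 4 to 8 to 43.1 ± 0.283 RPKM and the 13 of paralogs 9 to 13 to 56.4 ± 0.701 RPKM (SD, n = 2 populations). Genes of all axial levels were thus present in the same RNA, and 8 of the 13 most posterior genes reached 1 RPKM. In reads, which are not divided by gene length, the order of the last 2 groups was the reverse. Paralogs 4 to 8 had 3844, 3464, 3149 and 4212 reads in the 4 libraries. Those of paralogs 9 to 13 numbered 2534, 2856, 2028 and 3332. The sum of paralogs 1 to 3 was 27.5, 29.8, 28.0 and 29.4 RPKM, whereas that of paralogs 9 to 13 was 48.1, 65.8, 46.7 and 65.2 RPKM. The share of paralogs 9 to 13 was accordingly 41.5% and 46.6% in libraries 1 and 2 of passage 9, and 41.1% and 45.8% in those of passage 39.

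Levels in RPKM, which depend on the gene lengths used, did not run smoothly along a cluster. Among neighbours that both had reads, the largest ratio was between Hoxb3 and Hoxb4, 15.1 on average and between 13.8 and 17.5 in the libraries. The ratio of Hoxd9 to Hoxd4 was between 11.1 and 13.9, that of Hoxd9 to Hoxd10 between 6.90 and 7.79, that of Hoxb3 to Hoxb2 between 4.77 and 5.72, and that of Hoxb9 to Hoxb8 between 3.89 and 4.55. Hoxb3, Hoxb7 and Hoxb9 each lay above both of their listed neighbours in every library. Between Hoxd3 and Hoxd1 the ratio of means was 13.1, with 0 to 3 reads of Hoxd1.

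In the order of the 22 levels, the ranges of the 4 libraries were apart for 5 of 21 neighbouring pairs. These were Hoxb3 above Hoxb7, Hoxb13 above Hoxc8, Hoxc8 above Hoxc10, Hoxc10 above Hoxc4, and Hoxa2 above Hoxb4. Hoxb7 was above Hoxd9, and Hoxb6 above Hoxb2, in 4 of 4 libraries with overlapping ranges. The other 14 neighbours changed places in at least 1 library, among them Hoxb2, Hoxc12, Hoxa3 and Hoxc9 with means between 3.01 and 3.38 RPKM.

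Some levels are uncertain because of how the genes lie. In the GRCr8 annotation 10 listed Hox genes overlap another gene and 6 of them another Hox gene: Hoxa3 overlaps Hoxa5 and Hoxa6, and Hoxc6 overlaps Hoxc4 and Hoxc5. Reads were counted without regard to strand, so reads of Hoxb5 and Hoxb6 and of the transcript Hoxb5os opposite to them cannot be told apart either. The gene length behind the RPKM values, recovered with the reads, was 10256 bp for Hoxc6 and 5560 bp for Hoxd4, beside a median of 1567 bp over the 22 detected Hox genes, and a longer model gives a lower RPKM for the same reads. Some symbols may not name the same gene in every annotation. The GRCr8 annotation gives Hoxa9 as another name of Hoxa7, Hoxa11 of Hoxa2, Hoxa10 of Hoxa11 and Hoxc8 of Hoxc9.

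A first comparison that the design implies is that of passage 39 with passage 9, as labelled. None of the 22 genes with at least 1 RPKM differed 2-fold between the passages on the log2(RPKM + 1) scale, a scale that understates the change of low genes, and 0.00907% of all 11025 genes tested did. The differences of passage 39 from passage 9 were between -0.13 for Hoxc13 and 0.18 for Hoxc12, with a median of 0.01 beside -0.0021 over all genes tested. These values rest on both library numbers being present at each passage: with 1 library left out, the difference of Hoxc12 was between -0.43 and 0.69 and that of Hoxc13 between -0.64 and 0.50, lowest without library 2 of passage 39 and highest without library 2 of passage 9 for both. Hoxb2 was the single gene of 22 whose passages did not overlap, with a difference of -0.07, and 6.21% of all genes tested did not overlap. With 1 population per passage, no p-value was computed for the passages.

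Reads of single libraries were compared by an exact conditional binomial test, two-sided, adjusted by Benjamini-Hochberg over all genes tested, which compares 2 libraries and not the passages. Of 27 Hox genes with reads, 0 were called higher or lower between the libraries numbered 1, where 0.0112% of all genes were called higher and 0.028% lower at passage 39. Between the libraries numbered 2, 0 of 27 were called as well, beside 0.028% higher and 0.173% lower over all genes. An unadjusted exact p under 0.05 was found for 2 of 27 Hox genes in each comparison, a count for which no share over all genes is given here. For libraries numbered 1 the lowest was Hoxc8, with 410 reads at passage 9 and 273 at passage 39, a ratio of 0.805 (95% exact interval 0.688 to 0.940) and an adjusted exact p of 0.778. For those numbered 2 it was Hoxd9, with 557 and 757 reads, a ratio of 1.16 (1.04 to 1.30) and an adjusted exact p of 0.449. Hoxb3 had one of the narrowest intervals, 0.919 to 1.13 and 0.909 to 1.11 in the 2 comparisons.

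The comparison by library number gave larger differences. For 17 of the 22 Hox genes both libraries numbered 2 lay above both numbered 1, which 57.2% of all genes tested did, and for 3 (Hoxb4, Hoxc5 and Hoxc6) both lay below, as for 30.5% of all genes. Hoxb2 and Hoxc8 did neither. Hoxc13 reached the minimum of 1 RPKM through the libraries numbered 2 alone, so that its place among the 17 was set in part by the filter. The median difference of library 2 from library 1 was 0.19 on the log2(RPKM + 1) scale for the Hox genes and 0.10 for all genes tested, and 15 of 22 lay above the latter. No Hox gene passed a 2-fold difference, where 0.372% of all genes were higher and 0.726% lower. Hoxc13 and Hoxc12 came closest, with mean differences of 0.98 and 0.96. At passage 9 they were 1.07 and 0.88, and at passage 39 they were 0.88 and 1.03. With a pseudocount of 0.1 RPKM in place of 1 both passed, at 1.50 and 1.26. With a library left out, 1 gene passed, Hoxc12 where a passage 9 library was left out and Hoxc13 where a passage 39 library was.

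**Figure D3:**
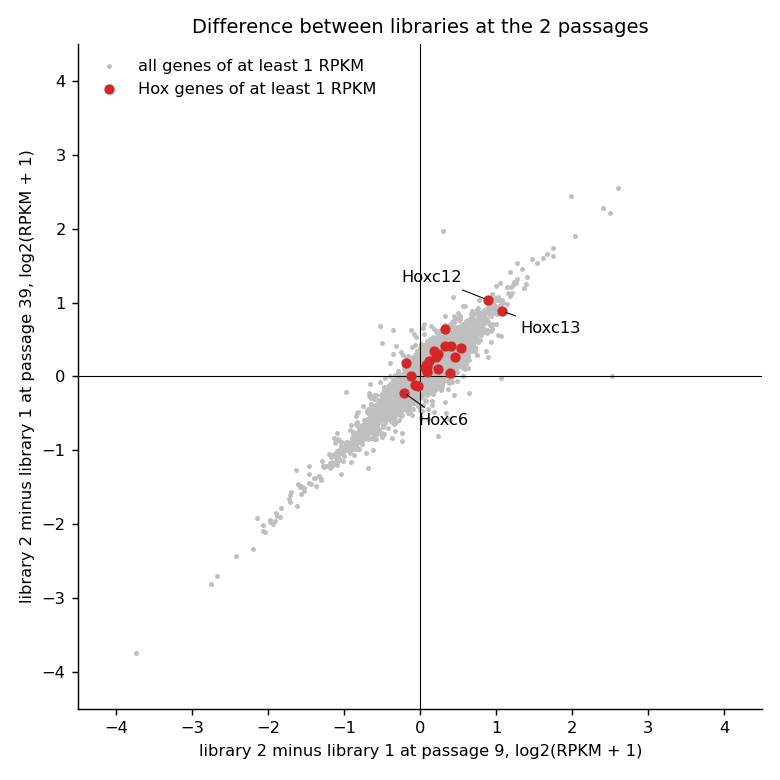
Difference of library 2 from library 1 on the log2(RPKM + 1) scale at passage 9 (x axis) and at passage 39 (y axis) for all 11025 genes whose mean reached 1 RPKM (grey points) and the 22 Hox genes among them (red points). The genes lie along the diagonal, Hoxc12 and Hoxc13 at 0.88 to 1.07 on both axes and Hoxc6 at -0.22 on both.

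Tested on reads, 12 of the 27 Hox genes were higher in library 2 at passage 9 and 1 lower, beside 29.6% and 17.4% of all genes. At passage 39 it was 11 higher and 1 lower, beside 28.6% and 16.9%. These shares include genes with as little as 1 read in the pair. Among genes with at least 20 reads, 12 of 25 Hox genes were higher and 1 lower at passage 9, beside 39.4% and 22.9%. At passage 39 these were 11 and 1 of 24, beside 38.3% and 22.2%. The genes higher at both passages were 10: Hoxb7, Hoxb8, Hoxb9, Hoxb13, Hoxc4, Hoxc9, Hoxc12, Hoxc13, Hoxd4 and Hoxd9, and 25.2% of all genes were. Hoxc6 was lower at both, as were 14.6% of all genes. The shares at both passages, here and for the gene lists, also include genes with few reads. Paralogs 9 to 13 gave 6 of the 10 and paralogs 1 to 3 none, where 8 of 13 and 5 of 8 of their listed genes reached 1 RPKM. With so few genes a difference between these groups was not tested. In each test the calls favoured the higher direction over all genes, by 63.1% and 62.8% of calls at the 2 passages. With totals set by the median ratio these shares were 49.3% and 49.1%, and with totals set to a common sum of RPKM 39.4% and 39.8%.

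Under these other totals the number of Hox genes higher at both passages fell from 10 to 8 and 5. Hoxb7, Hoxc9, Hoxc12, Hoxc13 and Hoxd9 were among the 10, the 8 and the 5, beside 17.6% and 13.5% of all genes called higher under the median ratio and the common sum. Hoxc6 was lower under all of them, beside 18.8% and 22.1% of all genes, but not relative to genes of similar length, as given below. Thus the direction of these 6 genes did not rest on the choice of totals among the 3 run, and Hoxb13 and Hoxc4 were not called at both passages under either alternative.

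Hoxc13 had the largest ratio of the genes called, 3.29 (95% exact interval 2.25 to 4.90, 38 and 106 reads, adjusted exact p = 1.29e-10) at passage 9 and 2.77 (1.84 to 4.28, 31 and 103 reads, adjusted exact p = 5.48e-07) at passage 39. For Hoxc12, its neighbour in the cluster, the ratio was 2.34 (1.70 to 3.25, adjusted exact p = 1.98e-07) and 2.61 (1.91 to 3.61, adjusted exact p = 5.18e-10). Next to them Hoxc10 did not pass, with 1.07 (0.939 to 1.23) and 1.11 (0.969 to 1.27), so that the intervals of Hoxc10 and of Hoxc12 lay apart at both passages. Hoxc9 was at 1.64 (1.33 to 2.03) and 1.42 (1.15 to 1.76). Within HoxC the ratio was lowest at Hoxc6, 0.799 (0.723 to 0.881) and 0.802 (0.728 to 0.883), and highest at Hoxc12 and Hoxc13.

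Elsewhere the ratios were smaller. Hoxd9 had a ratio of 1.28 (1.14 to 1.45) and 1.63 (1.44 to 1.84), Hoxd4 of 1.46 (1.19 to 1.79) and 1.38 (1.12 to 1.71), and Hoxb7 of 1.34 (1.20 to 1.50) and 1.36 (1.22 to 1.51). Hoxb9 was at 1.39 (1.25 to 1.55) and 1.22 (1.09 to 1.36), and Hoxb8 at 1.31 (1.11 to 1.56) and 1.42 (1.19 to 1.70). Hoxb3, with more reads over the 4 libraries than any of these, was at 1.06 (0.961 to 1.18) and 1.05 (0.947 to 1.16) and was not called. Hoxb3 and Hoxb9, close in mean level, thus differed in this comparison, with intervals apart at passage 9 and overlapping at passage 39.

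**Figure D4:**
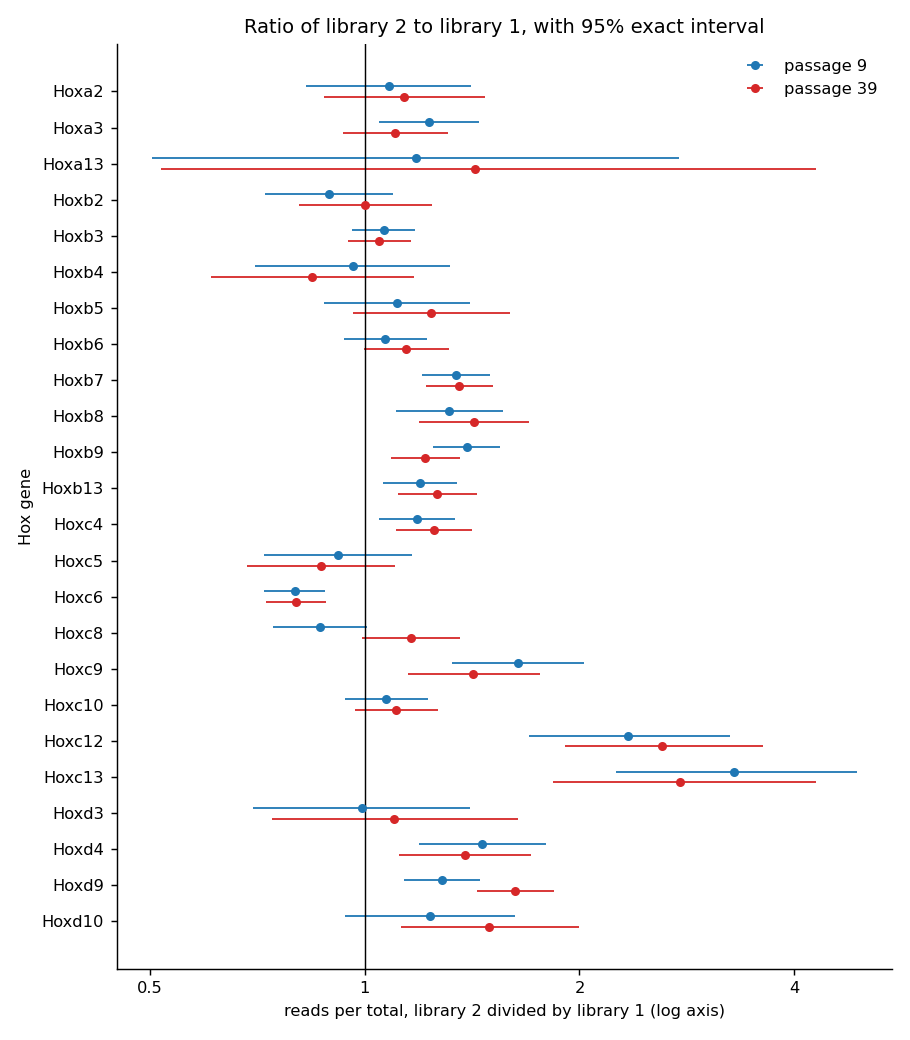
Ratio of library 2 to library 1 in reads per total (x axis, logarithmic) for 24 Hox genes with at least 40 reads over the libraries (y axis), at passage 9 (blue) and passage 39 (red); bars are 95% exact intervals, which cover counting error only. Hoxc12 and Hoxc13 have ratios between 2.34 and 3.29 and intervals to the right of the line at 1, and Hoxc6 lies near 0.8.

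Gene length moved with this difference. Over the 11025 genes tested, Spearman's rho between length and the difference of library 2 from library 1 was -0.42, a description across genes that share libraries. The detected Hox genes were shorter than the rest, with a median of 1567 bp against 2621 bp. Relative to the median of genes of similar length, 13 of the 22 Hox genes lay above 0, with a median of 0.0151 on the log2(RPKM + 1) scale. Hoxc13 was at 0.76 and Hoxc12 at 0.69. Of the other genes called, Hoxc6 went from -0.22 to 0.0012, Hoxb7 from 0.41 to 0.17, Hoxd9 from 0.49 to 0.25 and Hoxc9 from 0.45 to 0.25, so that the lower level of Hoxc6 in library 2 was absent relative to genes of similar length. The part of length and of the Schwann cell markers that moved with the library number was not tested.

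Of the Hox cofactors, 8 of 9 TALE genes had at least 1 RPKM. The highest means were those of Pbx3 at 25.5 RPKM and Meis1 at 9.41 RPKM, with Pbx2 above Meis1 in the libraries numbered 1, so that Pbx3 lay above every Hox gene. By library number, Meis1, Meis2, Meis3 and Pknox1 were called higher and 1 gene of the list lower in library 2 at both passages, 4 and 1 of 9 tested, beside 25.2% and 14.6% of all genes. Meis3 moved most, at 6.48, 10.8, 6.54 and 9.97 RPKM, with a difference of 0.60 on the log2(RPKM + 1) scale. Meis1, which binds with posterior Hox proteins, was at 7.42, 12.1, 7.29 and 10.9 RPKM. The median difference of the detected genes of the list was 0.13, beside 0.10 over all genes tested. None of them passed 2-fold between library numbers or passages on the log2(RPKM + 1) scale.

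Genes that act upstream of the Hox clusters were next. None of 6 Cdx and other ParaHox genes reached 1 RPKM, of which the Cdx genes switch on central and posterior Hox genes in the embryo, and the highest were Cdx2 at 0.171 RPKM and Cdx1 at 0.0583 RPKM. Cdx2 had 1, 34, 0 and 22 reads in the 4 libraries, so that nearly all its reads were in the libraries numbered 2, and it was called higher there at both passages. Retinoic acid activates anterior Hox genes through its nuclear receptors, and 8 of 15 genes of its pathway reached 1 RPKM. The receptors Rarg at 34.1 RPKM and Rara at 23.4 RPKM had the highest means. Aldh1a1, an enzyme that makes retinoic acid, was at 40.1, 2.07, 39.6 and 2.02 RPKM, above both receptors in the libraries numbered 1. Its difference was -3.75 on the log2(RPKM + 1) scale. Aldh1a2, the main such enzyme of the embryo, was listed at 0. On the other side of the balance Cyp26b1, which breaks retinoic acid down, was at 9.64, 17.0, 9.59 and 16.6 RPKM. In all, Rara, Rarg, Rxrb and Cyp26b1 were called higher and Rarb, Aldh1a1 and Aldh1a3 lower in library 2 at both passages, 4 and 3 of 10 tested, beside 25.2% and 14.6% of all genes. The median difference over the 8 detected genes was 0.04, and of these only Aldh1a1 passed 2-fold between library numbers on the log2(RPKM + 1) scale. Rarb, below the minimum of 1 RPKM, had 29, 5, 38 and 5 reads in the 4 libraries.

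**Figure D5:**
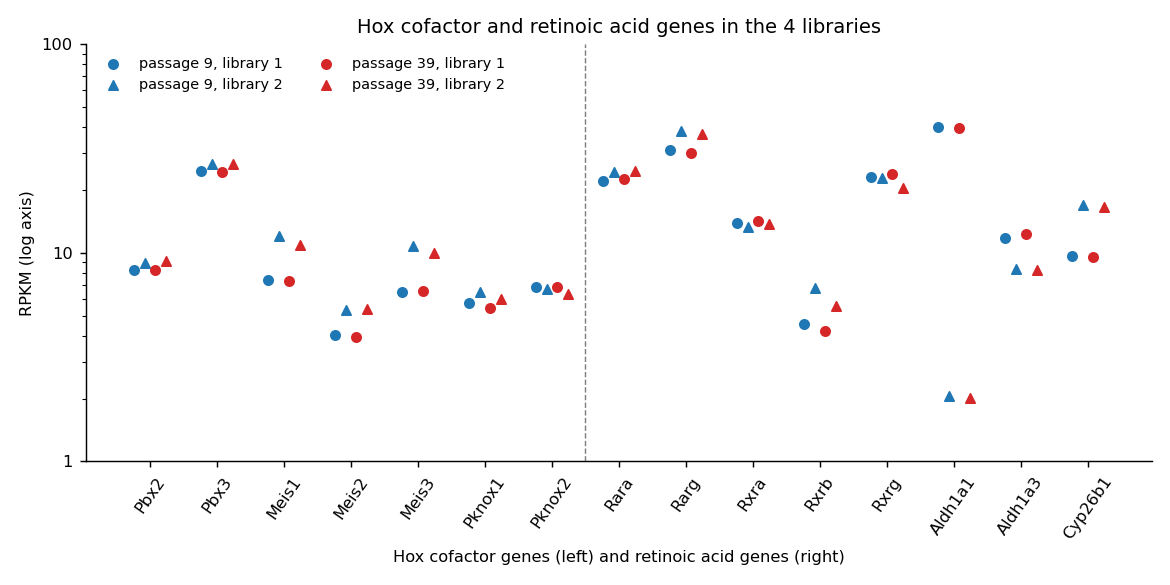
RPKM (y axis, logarithmic) of TALE cofactor genes (left of the dashed line) and the retinoic acid genes (right) that reached 1 RPKM on average, in the 4 libraries; circles are library 1, triangles library 2, blue passage 9 and red passage 39. Aldh1a1 lies near 40 RPKM in the libraries numbered 1 and near 2 RPKM in those numbered 2, and Meis1, Meis3 and Cyp26b1 lie higher in the latter.

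Chromatin regulators that keep Hox genes off or on were detected throughout. All 10 listed genes of Polycomb complex PRC2, which places the repressive mark H3K27me3, reached 1 RPKM, led by Rbbp7 at 244.7 RPKM and the methyltransferase Ezh2 at 57.1 RPKM. Phf1 moved most by library number, with a difference of 0.37, and 3 genes of 10 were called higher and 2 lower in library 2 at both passages. Of 12 genes of Polycomb complex PRC1, which acts on chromatin with that mark, 11 reached 1 RPKM, led by Cbx6 at 22.8 RPKM and Bmi1 at 22.1 RPKM. Of these 4 were called higher and 2 lower, and Phc3 moved most, by -0.39. All 8 listed trithorax group genes, which maintain active Hox genes, reached 1 RPKM, with Ash2l at 47.7 RPKM and Dpy30 at 32.1 RPKM the highest. Here 4 were called higher and 2 lower, and the methyltransferase gene Kmt2a moved most, by -0.41. None of the 3 lists held a gene past 2-fold between library numbers or between passages, and their shares of calls stand beside 25.2% higher and 14.6% lower over all genes. Their median differences by library number were 0.02, 0.08 and 0.10.

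Genes of head levels in front of the Hox domain gave a mixed picture. Of 15 homeobox genes of the forebrain, midbrain and face, 4 reached 1 RPKM, among them Alx4 at 6.90 RPKM, Emx2 at 5.63 RPKM and the midbrain gene En1 at 4.28 RPKM. Otx2, Hesx1, Rax and Emx1 were listed at 0. En1 moved most by library number among the 4, by -0.36, and 3 of 9 tested genes of the list were called higher and 2 lower in library 2 at both passages, beside 25.2% and 14.6% of all genes. Of 11 names of long noncoding RNAs of the Hox clusters, 1 was matched, the Hoxa11 antisense RNA, and it was listed at 0.

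The genes that flank the clusters were taken in the GRCr8 order, 3 listed genes on each side. Next to the posterior end, the homeobox genes Evx1 beside HoxA and Evx2 beside HoxD were at 0.0031 RPKM and at 0, and Ttll6 beside HoxB and Calcoco1 beside HoxC were at 0.0266 and 0.0069 RPKM. Further out on that side lay Hibadh at 69.4 RPKM and Tax1bp1 at 95.6 RPKM for HoxA, Calcoco2 at 0.0018 RPKM and Ube2z at 41.4 RPKM for HoxB, Atf7 at 15.4 RPKM and Npff at 2.91 RPKM for HoxC, and Atf2 at 13.1 RPKM and Chn1 at 4.41 RPKM for HoxD. At the anterior end, the nearest genes were Skap2 at 18.1 RPKM, Skap1 at 0.0038 RPKM, Smug1 at 6.85 RPKM and Mtx2 at 11.1 RPKM for HoxA to HoxD. Beyond them came Snx10 at 0.0091 RPKM and Cbx3 at 25.7 RPKM, Snx11 at 7.64 RPKM and Cbx1 at 52.2 RPKM, Cbx5 at 29.5 RPKM and Hnrnpa1 at 33.1 RPKM, and Hnrnpa3 at 48.4 RPKM and Nfe2l2 at 18.3 RPKM. On the posterior side the nearest listed gene was thus below 0.03 RPKM for each of the 4 clusters, while Hoxb13 and Hoxc13 at those ends were at 10.4 and 1.86 RPKM.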

How the data were processed

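Poly(A) RNA from 2 populations of S16 cells was sequenced by the authors as 50-base single reads in 2 technical replicate libraries each. Per the study's methods and the submitters' processing notes, the authors checked reads with FastQC, aligned them to rn5 with STAR, kept uniquely mapped reads and counted them with HTSeq without strand. Versions are not given in the sources used here. The authors deposited RPKM values per gene symbol.

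Library totals and whole reads were recovered from the RPKM values (18114 of 18114 genes above 0 in at least 2 libraries, within a relative tolerance of 1e-09), as the smallest whole numbers that fit, so a common factor can stay hidden. The recovery and the exact test were tested on simulated data. Values were averaged within a passage, and the SD was taken over 2 populations. Differences used log2(RPKM + 1) and the genes whose mean reached 1 RPKM. Pairs of libraries were compared by an exact binomial test of reads, adjusted over all genes tested at 0.05. Intervals are exact Clopper-Pearson ones for counting error alone, because the libraries carried no molecular identifiers and reads may share a molecule. Python 3.11.15, numpy 2.4.6, pandas 2.3.3, scipy 1.17.1 and matplotlib 3.10.9 were used.

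Every Hox gene of at least 1 RPKM was named, as were all those at 0, the 3 flanking genes on each side of a cluster, and, of each list (TALE cofactors, Cdx and ParaHox, head homeobox, PRC2, PRC1, trithorax, retinoic acid, Hox noncoding RNAs, and markers of Schwann cells, neurons, fibroblasts and melanocytes), the 2 highest genes and the 1 with the largest difference by library number. A few genes that this rule covers, 1 Hox gene among them, are not reported here, while counts, sums and medians include all genes. Other named genes were chosen after their values were seen. The members and lists were chosen with earlier results of these data known. Names matched the GRCr8 RefSeq table for 33 of 33 listed Hox genes, and promoters for 15. The alternatives were 2 scalings, other pseudocounts and minimums, a correction for length, and each library left out.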

Additional observations from a re-analysis of the deposited data

Results flagged for a closer look

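For 2 of the 22 detected Hox genes the difference of library 2 from library 1 had opposite signs at the 2 passages, which was not tested. Hoxc8 differed by -0.18 on the log2(RPKM + 1) scale at passage 9 and by 0.19 at passage 39. Hoxb2 differed by -0.13 at passage 9 and by 0.0026 at passage 39. By the exact test of reads neither gene was called at either passage, with adjusted exact p values of 0.116 and 0.126 for Hoxc8 and of 0.435 and 1 for Hoxb2.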

How the results depend on the processing

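The number of detected Hox genes was 22 and fell to 7 with a minimum of 5 RPKM. Their summed RPKM of 128.2 became 384.2 with every library rescaled to a sum of 1000000 and 127.6 with median-ratio scaling, and lay between 121.1 and 135.4 with each library left out in turn. Leaving out each library gave shares between 5.19% and 5.55% for HoxA, 60.0% and 61.3% for HoxB, 22.8% and 23.2% for HoxC, and 10.4% and 11.6% for HoxD. The count of Hox genes past 2-fold between library numbers, 0 in the text, was 2 with rescaling to a common sum, 2 with a pseudocount of 0.1 RPKM, 2 with that pseudocount and no filter on low values, 1 with that pseudocount relative to genes of similar length, and 1 without each library in turn. The 2 settings that combine that pseudocount with another change, and the other totals of the exact test, were added after seeing the data. Between the passages it was 0 under each alternative run, although leaving out 1 library moved single differences as far as -0.64 and 0.50 for Hoxc13. The 12 Hox genes called between the libraries of passage 39 were 7 with totals scaled to a common sum of RPKM. Of 352 differences of single Hox genes recomputed under alternatives, 56 changed sign. No paired analysis was possible because the results by passage come from no test, with 1 population per passage. The reads limit the low genes: intervals of Hoxc13 span 0.658 to 1.28 RPKM in library 1 of passage 9, and for the 6 genes at 0 the expected count may be up to 3 in a library.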

Other observations

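En2, a midbrain homeobox gene just below the minimum of 1 RPKM, was at 0.410 and 1.41 RPKM in libraries 1 and 2 of passage 9 and at 0.506 and 1.56 RPKM in those of passage 39, with 46, 134, 47 and 174 reads. Its ratio of library 2 to library 1 was 3.44 (95% exact interval 2.44 to 4.91) at passage 9 and 3.09 (2.22 to 4.36) at passage 39. Beside it, Hoxc13 and Hoxc12 had ratios between 2.34 and 3.29. En2 was chosen after its values were seen.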
